A study of Mus musculus with 12 samples.

Results

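The enzymes that write, copy and remove DNA methylation were followed across mouse embryoid bodies with and without induced *Lhx1*. They are 9 genes taken by symbol, *Dnmt1*, *Uhrf1*, *Dnmt3a*, *Dnmt3b*, *Dnmt3l*, *Tet1*, *Tet2*, *Tet3* and *Tdg*, out of 23086 gene symbols counted. The choice was made with earlier results of these data known. All 9 were among the 12322 genes that passed the filter on low counts. The study sequenced total RNA from embryoid bodies grown for 2 days from A2lox.cre embryonic stem cells and addressed the targets of LHX1, a homeodomain protein with LIM domains that head formation requires. In cells of that type a transgene at the *Hprt* locus is driven by a promoter that doxycycline switches on. The 4 groups, of 3 libraries each, were the line with mutant FLAG-*Lhx1* given doxycycline for 16 h (MUTD16), the same mutant line without doxycycline (MUTC16), the line with wild-type FLAG-*Lhx1* given doxycycline for 16 h (WTD16), and that wild-type line without doxycycline (WTC16). All 4 groups share the A2lox.cre background and a FLAG-tagged *Lhx1* transgene, and no group without a transgene was analysed here. The sources used here give neither the change carried by the mutant form nor the number of clones behind each line, so line, clone and transgene cannot be told apart in a comparison of the lines.

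DNA methyltransferases place methyl groups on the cytosines of CpG dinucleotides. DNMT1 copies the pattern to the new strand after replication and is brought there by UHRF1, while DNMT3A and DNMT3B methylate new sites, helped by DNMT3L, which has no activity of its own. TET enzymes oxidise the methyl group, using 2-oxoglutarate, and the glycosylase TDG removes the oxidised base so that repair can put back an unmodified cytosine. When pluripotent cells leave the naive state for the epiblast state, the genome passes from low to high methylation.

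The libraries held 4289984 to 4850393 counts each. *Lhx1* checked the doxycycline labels, but not which form of *Lhx1* a line carried. It stood at 250, 260 and 235 CPM in MUTD16 and at 0.407 to 0.429 CPM in MUTC16. In the wild-type line it stood at 307, 289 and 293 CPM in WTD16 against 1.12 to 3.33 CPM in WTC16. CPM here means counts scaled to a common library size with TMM factors, and values with ± are means and SD of 3 libraries. WTD16 library 2 stood apart in the ribosomal RNA gene *Rn45s* (14754 CPM, 875 to 2615 in the other 11), and WTC16 library 3 in the hypoxia gene *Bnip3* (229 CPM, 58.5 and 63.3 in the other WTC16 libraries). *Bnip3* varied in the other groups too, at 52.1, 65.8 and 107 CPM in WTD16 libraries 1 to 3 and 83.4 to 148 CPM in the mutant line. The 7 markers of pluripotent epiblast were all tested and none was at 0, with summed levels of 3091 to 3214 CPM in MUTD16, 3047 to 3224 in MUTC16, 2397 to 2489 in WTD16 and 2719 to 2763 in WTC16. In such bulk samples fewer cells of a type and less RNA per cell cannot be told apart.

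No member was called in the response to the mutant form of *Lhx1*, and induction of the wild-type form went with lower *Dnmt3a* and *Tet2*. That *Tet2* call was lost in 4 of 15 alternatives, and its response was not shown to differ between the lines. The lines differed in other members: *Dnmt3l*, *Tet1*, *Uhrf1* and *Dnmt1* were lower in the mutant line with or without doxycycline. *Tet2* was too, but with doxycycline its call was lost in 6 of 15 alternatives, DESeq2 among them. In the mutant response 0 of the 9 members were called, where 0.0162% of all genes were. That count comes from edgeR, limma-voom and DESeq2 alike at an adjusted p under 0.05, and in the edgeR fit 1 member, *Tet2*, had an unadjusted p under 0.05 (0.0415). In the wild-type response 2 of the 9 were called, both lower, where 2.56% of all genes tested were called lower, 2.76% higher and 5.32% in either direction. *Dnmt3a* was called by DESeq2 and limma-voom too, while *Tet2* was lost with DESeq2 and without both libraries that stood apart. *Dnmt3b* was gained in 6 of 15 alternatives, among them limma-voom and the fit without those libraries. The difference between the responses was called for 1 of 9, *Dnmt3a*, which was higher in the mutant response, against 2.49% of all genes (1.09% higher and 1.4% lower). The mutant line against the wild-type line gave 5 of 9 members without doxycycline, all lower, where 22.6% of all genes were called lower and 45.5% in either direction (23% higher). With doxycycline it gave 6 of 9, 1 higher and 5 lower, where 44.4% of all genes were called, 21.9% higher and 22.4% lower. The libraries of the lines did not overlap for 5 members without doxycycline and for 7 with it, against 51.8% and 51.7% of all genes. The median log2 fold change of the 9 members was −0.05 in the mutant response, −0.12 in the wild-type response, −0.36 between the lines without doxycycline and −0.38 with it, while the median of all genes tested lay between −0.00 and 0.01.

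**Figure D1:**
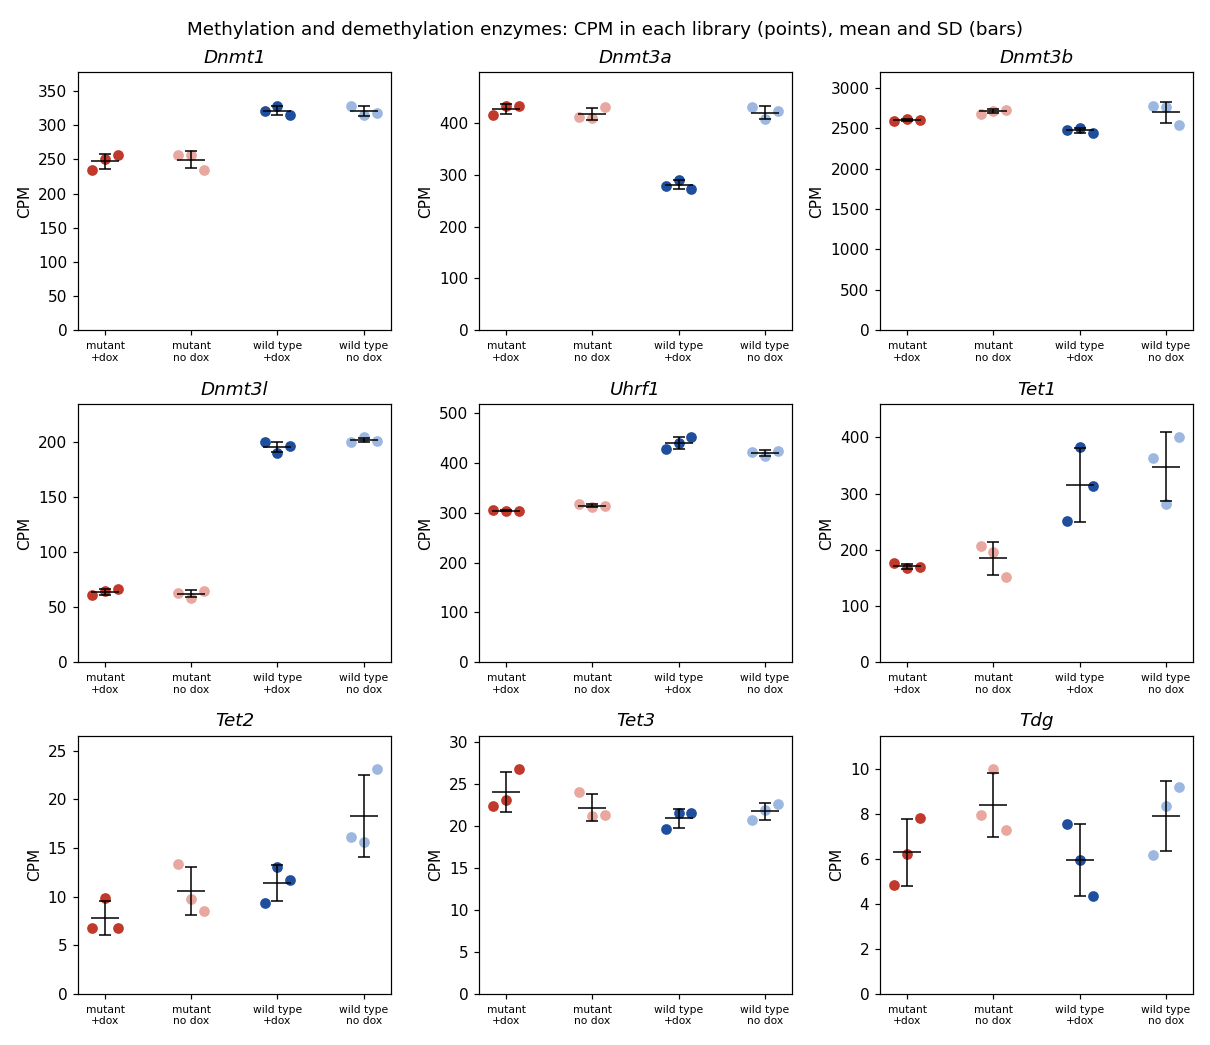
Level of each of the 9 genes in each library, in CPM, with a panel per gene and the 4 groups from left to right (MUTD16, MUTC16, WTD16, WTC16). Points are libraries and bars are means ± SD of 3. *Dnmt3a* is low in the 3 WTD16 libraries alone, at 273 to 291 CPM, while *Dnmt3l* is low in all 6 mutant libraries.

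**Figure D2:**
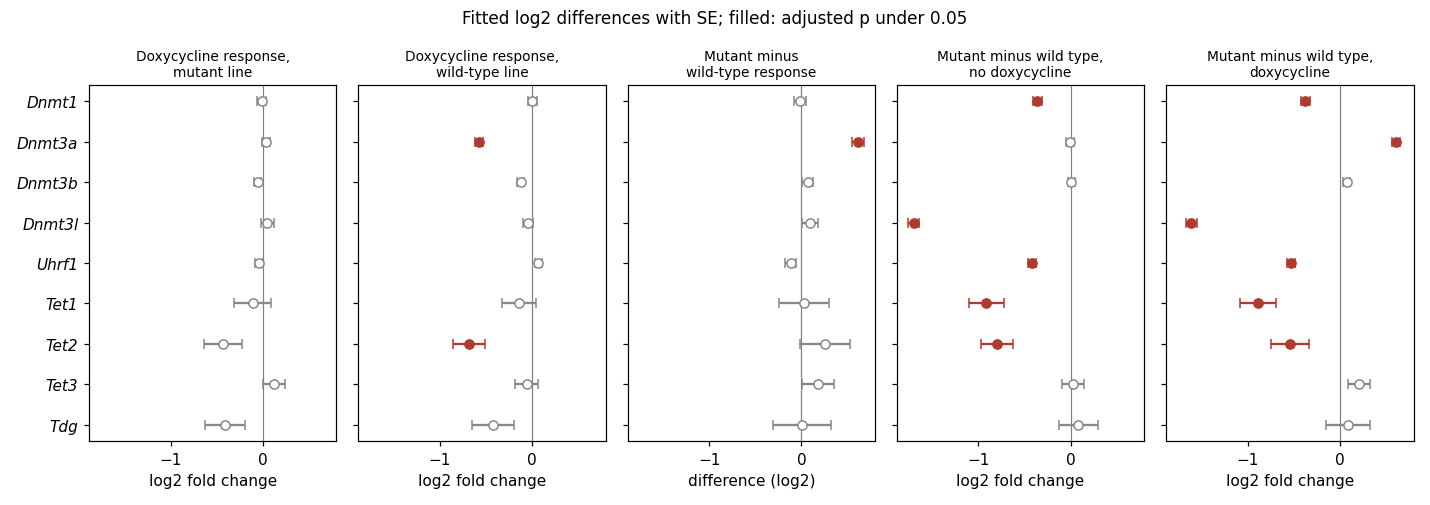
Log2 fold change (x axis) of each gene in 5 panels: the mutant response to doxycycline, the wild-type response, the mutant response minus the wild-type one, and the mutant line minus the wild-type line without and with doxycycline. Bars are 1 SE and filled points have an adjusted p under 0.05; *Dnmt3a* shows 0.03 in the mutant response and −0.58 in the wild-type one.

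The promoters of the members called in the wild-type response, and that of *Dnmt3l*, the member that differed most between the lines, are shown for their CpG content, since the members act on that dinucleotide. The sequences are RefSeq windows on GRCm38.p6, 250 bases before to 50 after a start, printed in the direction of transcription with every CpG in capitals. *Dnmt3a* has 3 such windows, holding 46, 47 and 18 CpGs. The first overlaps the second. The third lies inside the gene, where a shorter form of the enzyme is known to start. Across 32851 windows of that length in the same table the median was 7 CpGs, with quartiles of 3 and 20.
Dnmt3a, 5′ start, chr12:3806910-3807209, plus strand, 47 CpGs: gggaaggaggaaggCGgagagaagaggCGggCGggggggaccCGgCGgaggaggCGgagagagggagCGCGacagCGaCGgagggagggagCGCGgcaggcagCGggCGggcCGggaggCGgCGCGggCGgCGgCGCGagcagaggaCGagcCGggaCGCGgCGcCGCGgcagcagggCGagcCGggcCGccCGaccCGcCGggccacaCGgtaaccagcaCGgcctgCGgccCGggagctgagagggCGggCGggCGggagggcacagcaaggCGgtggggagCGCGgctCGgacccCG
Dnmt3a, internal start, chr12:3891494-3891793, plus strand, 18 CpGs: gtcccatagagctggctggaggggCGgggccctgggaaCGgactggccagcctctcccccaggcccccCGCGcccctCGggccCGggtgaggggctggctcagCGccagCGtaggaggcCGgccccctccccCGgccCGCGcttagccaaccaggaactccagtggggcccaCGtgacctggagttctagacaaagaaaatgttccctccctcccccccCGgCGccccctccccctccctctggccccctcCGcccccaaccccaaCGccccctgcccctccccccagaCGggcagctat
Tet2, chr3:133544341-133544640, minus strand, 57 CpGs: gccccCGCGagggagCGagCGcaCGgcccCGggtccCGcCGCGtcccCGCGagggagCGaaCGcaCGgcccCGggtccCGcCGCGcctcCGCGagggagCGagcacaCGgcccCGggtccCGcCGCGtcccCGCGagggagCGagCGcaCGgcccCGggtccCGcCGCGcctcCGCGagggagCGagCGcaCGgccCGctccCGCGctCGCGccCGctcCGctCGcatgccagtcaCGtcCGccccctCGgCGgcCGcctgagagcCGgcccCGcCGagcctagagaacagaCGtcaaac
Dnmt3l, chr10:78042037-78042336, plus strand, 6 CpGs: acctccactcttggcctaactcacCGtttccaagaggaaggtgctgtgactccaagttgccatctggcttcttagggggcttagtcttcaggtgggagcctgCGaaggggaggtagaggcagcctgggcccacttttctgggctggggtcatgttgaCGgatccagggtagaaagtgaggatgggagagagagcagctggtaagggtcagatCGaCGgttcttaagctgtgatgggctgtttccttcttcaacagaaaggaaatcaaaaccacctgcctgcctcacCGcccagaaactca
The *Tet2* and the 5′ *Dnmt3a* windows held more CpGs than the upper quartile, the internal *Dnmt3a* window fell just under it, and the *Dnmt3l* windows, with 6, 4 and 3, lay under the median. Windows of *Dnmt1* (33), *Uhrf1* (33), *Dnmt3b* (30), *Tdg* (26) and *Tet3* (22) also exceeded the upper quartile. The other *Dnmt1* (12 and 2) and *Uhrf1* (12) windows and that of *Tet1* (17) did not. These genes were not called in the wild-type response, so CpG content does not set the called members apart. The core motif of LIM homeodomain factors, TAATTA, which reads the same on both strands, was in 0 of the 16 windows of the 9 genes and in 5.29% of all windows. The counts are per gene and do not tell which start was used.

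Levels of different members can be set side by side only per length. Per kilobase of annotated exons, *Dnmt3b* was the most abundant of the 9 in every group, at 510 ± 2.27 CPM per kb in MUTD16, 530 ± 4.84 in MUTC16, 484 ± 5.57 in WTD16 and 528 ± 26.2 in WTC16. That put it at rank 84 of 11572 genes with a known exon length. *Uhrf1* came next in all 4 groups, at 71.6 and 73.9 CPM per kb in MUTD16 and MUTC16, against 103 and 98.7 in WTD16 and WTC16. *Dnmt3l* stood under *Dnmt1* in the mutant line and above it in the wild-type line. In MUTC16 *Dnmt3l* had 20.8 ± 1.05 and *Dnmt1* 33.8 ± 1.70 CPM per kb, and in WTC16 they had 67.7 ± 0.717 and 43.5 ± 0.962. *Dnmt3a* and *Tet1* did not differ beyond their spread in WTC16, with 25.2 ± 0.711 and 22.5 ± 3.96 CPM per kb. *Tet3*, *Tdg* and *Tet2* were the lowest, each under 2 CPM per kb in every group, with *Tet3* and *Tdg* not separated beyond their spread in any group. *Tdg* and *Uhrf1* have annotated near-identical copies, described with those genes below, so their places in this order are uncertain. Exon length counts every annotated exon. With the longest coding transcript in its place *Dnmt3a* reads 29.0 CPM per kb in WTD16, above *Tet1* at 22.0, whereas over all exons it reads 16.9, under *Tet1* at 20.4.

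**Figure D3:**
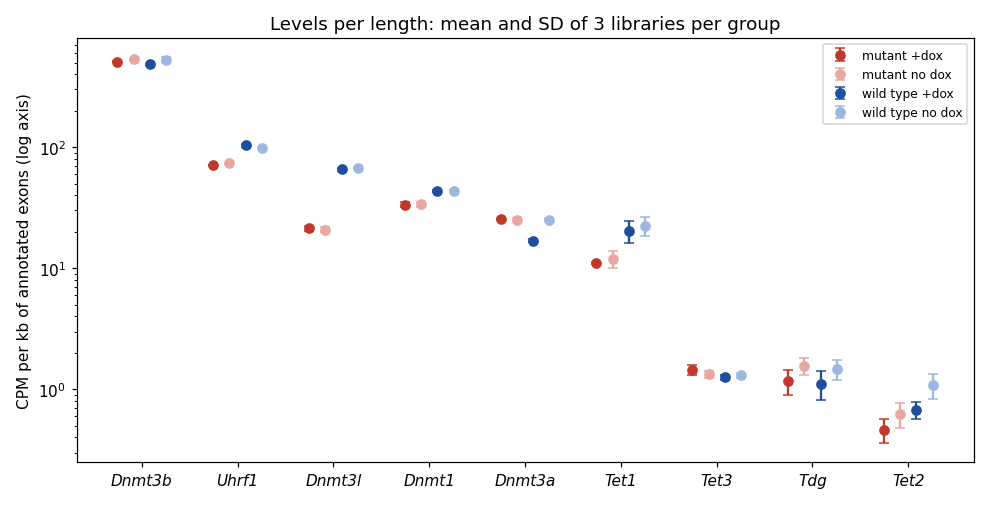
Level per kilobase of annotated exons (CPM per kb, log axis) of the 9 genes, ordered by their mean, in MUTD16, MUTC16, WTD16 and WTC16. Points are means and bars SD of 3 libraries; *Dnmt3b* lies between 484 and 530 in all groups and *Tet2* between 0.463 and 1.08.

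*Dnmt3a* (chromosome 12, 3806007 to 3914443, plus strand, mm10) encodes a de novo methyltransferase. In the mutant line it stood at 416, 433 and 432 CPM in MUTD16 against 411, 409 and 431 CPM in MUTC16, which overlap. The log2 fold change there was 0.03 (SE 0.04, adjusted p = 0.999, edgeR's quasi-likelihood test). With the wild-type form it stood at 279, 291 and 273 CPM in WTD16 against 430, 407 and 422 CPM in WTC16. There all 3 libraries with doxycycline lay under all 3 without. The mean was 281 ± 8.88 CPM in WTD16 and 420 ± 11.8 CPM in WTC16, a log2 fold change of −0.58 (SE 0.04, adjusted p = 1.20e-15), or 0.669-fold. The mutant response minus the wild-type response was 0.61 (SE 0.06, adjusted p = 5.97e-11). Without doxycycline the lines overlapped in *Dnmt3a* (−0.01, SE 0.04, adjusted p = 0.876), and with it the mutant line was higher by 0.60 (SE 0.04, adjusted p = 2.67e-17). These last comparisons share their libraries with the responses.

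*Dnmt3b* (chromosome 2, 153649450 to 153687730, plus strand), the other de novo enzyme, held 10512 to 13344 counts per library. In the mutant line it had 2589, 2612 and 2605 CPM in MUTD16 against 2678, 2716 and 2725 CPM in MUTC16, a change of −0.06 (SE 0.04, adjusted p = 0.999). Those groups did not overlap, which held for 2 of the 9 members in the mutant response and 10.6% of all genes. With the wild-type form it stood at 2481, 2497 and 2442 CPM in WTD16 against 2779, 2765 and 2541 CPM in WTC16. These groups did not overlap either, yet the log2 fold change of −0.12 (SE 0.04) missed the threshold at an adjusted p of 0.0507. Non-overlap of 3 libraries against 3 was seen for 5 of the 9 members in the wild-type response and for 18.9% of all genes. The lowest WTC16 value is that of library 3, the one apart in *Bnip3*. Without that library the change was −0.17 and the adjusted p 0.00339, and over all 15 alternatives the adjusted p ran from 0.000187 to 0.248. The difference between the responses was 0.07 (SE 0.06, adjusted p = 0.693). Between the lines *Dnmt3b* differed by 0.01 without doxycycline (SE 0.04, adjusted p = 0.916) and by 0.07 with it (SE 0.04, adjusted p = 0.128). The second value was called higher in the mutant line without both libraries that stood apart (0.08, adjusted p = 0.0361) and with limma-voom (adjusted p = 0.0495), and its adjusted p reached 0.305 over the 15 alternatives. Counted within a library, and so free of scaling, there were 16.1, 16.6 and 16.6 *Dnmt3a* counts per 100 of *Dnmt3b* in MUTD16 and 15.3, 15.1 and 15.8 in MUTC16. WTD16 had 11.2, 11.6 and 11.2 against 15.5, 14.7 and 16.6 in WTC16. The WTD16 ratios lay under those of the other 9 libraries.

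*Dnmt3l* (chromosome 10, 78041947 to 78063622, plus strand), the cofactor of the de novo enzymes, separated the lines more than any other member. It stood at 60.9, 64.5 and 66.8 CPM in MUTD16 and 62.7, 58.8 and 65.0 CPM in MUTC16. In the wild-type line it stood at 200.4, 191 and 197 CPM in WTD16 and 201, 205 and 201 CPM in WTC16. The mutant line was lower by log2 fold changes of −1.70 without doxycycline (SE 0.06, adjusted p = 5.32e-31) and −1.61 with it (SE 0.06, adjusted p = 5.67e-30), or 0.307-fold and 0.327-fold. Neither response was called: 0.05 in the mutant line (SE 0.07, adjusted p = 0.999) and −0.04 in the wild-type line (SE 0.05, adjusted p = 0.773). *Dnmt3l* shares exon sequence with *Aire* on the opposite strand, and the sources used here do not say whether counting used strand. *Aire* held 2 to 7 counts per library in the mutant line and 16 to 38 in the wild-type line, against 278 to 905 of *Dnmt3l* over all libraries. Per 100 counts of *Dnmt3a* there were 14.7, 14.9 and 15.5 of *Dnmt3l* in MUTD16 and 15.2, 14.4 and 15.1 in MUTC16. There were 71.8, 65.6 and 72.0 in WTD16 and 46.7, 50.3 and 47.6 in WTC16, so that the mutant line, WTD16 and WTC16 did not overlap.

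Both genes of maintenance methylation were lower in the mutant line and were not called in either response. *Dnmt1* (chromosome 9, 20907209 to 20959888, minus strand) stood at 235, 250 and 256 CPM in MUTD16 and 257, 256 and 235 CPM in MUTC16, against 320, 328 and 315 CPM in WTD16 and 329, 315 and 318 CPM in WTC16. All 6 mutant libraries lay under all 6 wild-type ones. The log2 fold change between the lines was −0.36 without doxycycline (SE 0.05, adjusted p = 5.44e-09) and −0.38 with it (SE 0.05, adjusted p = 1.93e-09). The responses to doxycycline were −0.01 in the mutant line (SE 0.05, adjusted p = 1.00) and 0.00 in the wild-type line (SE 0.05, adjusted p = 0.990).

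*Uhrf1* (chromosome 17, 56303321 to 56323486, plus strand), the reader of hemimethylated DNA, stood at 306, 304 and 304 CPM in MUTD16 and 318, 313 and 314 CPM in MUTC16. It stood at 428, 440 and 452 CPM in WTD16 and 422, 414 and 425 CPM in WTC16. The lines again did not overlap. The mutant line was lower by −0.42 on the log2 scale without doxycycline (SE 0.04, adjusted p = 4.08e-12) and by −0.53 with it (SE 0.04, adjusted p = 9.18e-16). The response to doxycycline was −0.05 in the mutant line (SE 0.04, adjusted p = 0.999) and 0.07 in the wild-type line (SE 0.04, adjusted p = 0.468), and their difference of −0.11 was not called (SE 0.06, adjusted p = 0.425). Per 100 counts of *Dnmt1* there were 119 to 130 of *Uhrf1* in MUTD16, 122 to 134 in MUTC16, 134 to 143 in WTD16 and 128 to 134 in WTC16. *Uhrf1* has an annotated near-identical copy, *Gm5648*, over 1590 bases at 98.3% identity, which is not a row of the count table, so reads of the pair may have been shared or lost.

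The S phase list moved with these genes. Of its 27 genes, chosen for DNA replication, 23 were called lower and 0 higher in the mutant line without doxycycline, with a median log2 fold change of −0.33, and 19 lower and 0 higher with doxycycline, with a median of −0.32. Of all genes 22.6% were called lower and 23% higher without doxycycline, and 22.4% and 21.9% with it. Its summed level was 4507 to 4549 CPM in MUTD16 and 4556 to 4618 in MUTC16, against 5561 to 5775 in WTD16 and 5764 to 5849 in WTC16. None of the 27 was at 0 in any group. *Mcm5*, a subunit of the replicative helicase, averaged 449 ± 2.29 CPM in MUTC16 and 679 ± 19.6 CPM in WTC16, a change of −0.60 (SE 0.04, adjusted p = 1.74e-17). *Rfc5*, of the clamp loader, differed by −0.71 (SE 0.05, adjusted p = 3.14e-17), and *Rrm2*, of ribonucleotide reductase, by −0.68 with doxycycline (SE 0.05, adjusted p = 6.20e-17). No gene of the list was called in either response to doxycycline by edgeR, DESeq2 or limma-voom. At an unadjusted p under 0.05 edgeR gave 1 higher and 2 lower in the mutant response and 0 higher and 4 lower in the wild-type one. *Gins2*, of the helicase complex, alone was called in the difference between the responses (0.41, SE 0.12, adjusted p = 0.0473), and neither DESeq2 nor limma-voom called it. The part of the S phase genes in the levels of *Dnmt1* and *Uhrf1* was not tested.

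*Tet1* (chromosome 10, 62804570 to 62908996, minus strand), the most abundant of the 3 oxidases per length, was lower in the mutant line. It stood at 176, 167 and 170 CPM in MUTD16 and 206, 196 and 152 CPM in MUTC16, against 251, 383 and 313 CPM in WTD16 and 364, 281 and 400 CPM in WTC16. The highest mutant library lay under the lowest wild-type one. The log2 fold change between the lines was −0.91 without doxycycline (SE 0.19, adjusted p = 0.00426) and −0.88 with it (SE 0.19, adjusted p = 0.00564). The responses were −0.11 in the mutant line (SE 0.20, adjusted p = 0.999) and −0.14 in the wild-type line (SE 0.18, adjusted p = 0.811), and their groups overlapped.

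*Tet1* varied more between replicates than its level leads to. Its biological coefficient of variation was 15.7%, where the trend at its level was 4.26%, and 19 of 2108 genes with a mean of 100 to 1000 CPM (0.901%) varied at least as much. The other 8 members lay between 3.47% and 8.36%. Deviations of long transcripts are given beside it. In WTD16 *Tet1* deviated from its group mean by −0.31, 0.30 and 0.01 on the log2 scale in libraries 1 to 3, and the median of 544 genes with over 12 kb of exons and a mean over 10 CPM deviated by −0.09, 0.10 and −0.01. In WTC16 *Tet1* deviated by 0.08, −0.30 and 0.22 and that median by 0.03, −0.06 and 0.05. In MUTC16 *Tet1* deviated by 0.17, 0.10 and −0.27 and the median by 0.05, 0.04 and −0.09. In MUTD16 both stayed within 0.05 of their means and their signs differed. The signs agreed in 8 of the 12 libraries. The other members shared the sign of that median in 4 (*Dnmt3l*) to 11 (*Dnmt1*) of the 12, so the count does not set *Tet1* apart. *Tet1* itself has 15457 bases of annotated exons.

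**Figure D4:**
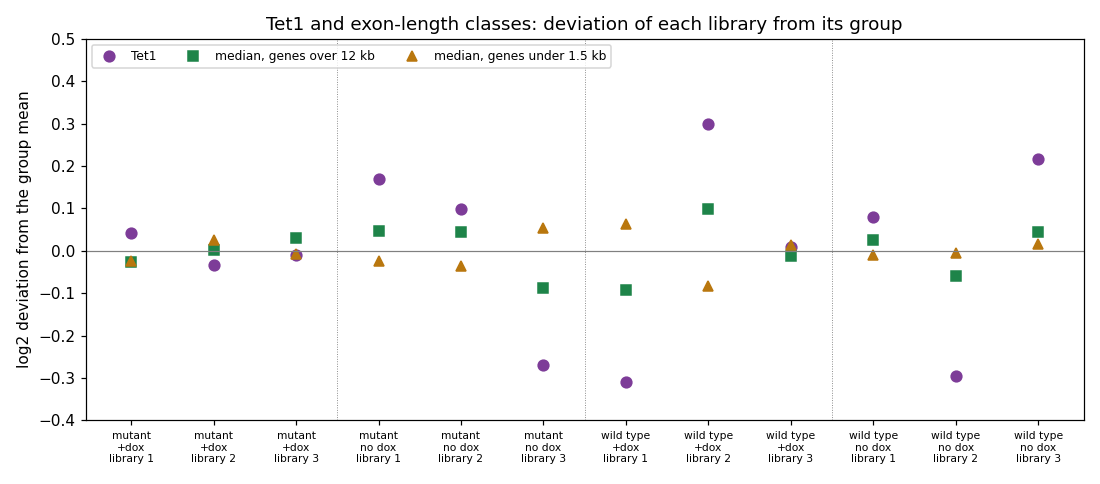
Deviation of each library from its group mean on the log2 scale for *Tet1*, for the median of 544 genes with over 12 kb of exons and for the median of 442 genes under 1.5 kb. The 12 libraries run from MUTD16 at the left to WTC16 at the right; *Tet1* and the long genes move the same way in 8 of 12.

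An edgeR fit with the level of these 544 genes in each library as a covariate (the median over genes of the log2 deviation from the gene's mean over all 12 libraries, rather than over its group), chosen after the spread of *Tet1* was seen, called *Tet1* lower in the wild-type response, at −0.18 (SE 0.04, adjusted p = 0.00179). This fit is 1 of the 15 alternatives for the wild-type response of *Tet1*, whose adjusted p ran from 0.00179 to 0.998. No other alternative called *Tet1* there. With the same covariate the difference between the responses of *Tet1* was 0.22 (SE 0.07, adjusted p = 0.0463), and the mutant line stayed lower than the wild-type line, by −0.78 with doxycycline (adjusted p = 3.22e-26). Whether transcript length accounts for the spread of *Tet1* was not tested beyond this fit.

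*Tet2* (chromosome 3, 133463679 to 133545139, minus strand) was scarce, with 31 to 103 counts per library. In the mutant line it stood at 6.80, 9.83 and 6.80 CPM in MUTD16 against 13.3, 9.77 and 8.56 CPM in MUTC16, which overlap, a change of −0.43 (SE 0.21, adjusted p = 0.999). With the wild-type form it stood at 9.37, 13.1 and 11.7 CPM in WTD16 against 16.2, 15.6 and 23.1 CPM in WTC16, without overlap. The log2 fold change there was −0.69 (SE 0.17, adjusted p = 0.00828), or 0.621-fold. The difference between the responses was 0.26 (SE 0.27, adjusted p = 0.781), so the lines were not shown to differ in their response. The wild-type call rests on single libraries: the adjusted p was 0.151 without WTC16 library 3 (change −0.48), 0.0745 without WTD16 library 1 and 0.0795 with DESeq2, and ran from 0.000795 to 0.151 over the 15 alternatives.

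Between the lines *Tet2* was lower in the mutant line by −0.80 without doxycycline (SE 0.17, adjusted p = 0.000177), with no overlap. With doxycycline it was lower by −0.54 (SE 0.21, adjusted p = 0.0285), although 1 MUTD16 library lay above the lowest WTD16 one. That second call was lost without any one of MUTD16 library 1 or 3 or WTD16 library 2 or 3, with adjusted p of 0.0782 to 0.123. Without both libraries that stood apart it was lost as well (−0.44, adjusted p = 0.0923), as with DESeq2 (adjusted p = 0.0779), and its adjusted p ran from 0.0101 to 0.123 over the 15 alternatives. An antisense gene, *Gm42567*, overlaps exons of *Tet2*, as *Dnmt3aos* does for *Dnmt3a*. Neither is a row of the count table.

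*Tet3* (chromosome 6, 83362373 to 83459084, minus strand), the oxidase best known from the zygote, held 86 to 130 counts per library. It stood at 22.4, 23.1 and 26.8 CPM in MUTD16 and 24.0, 21.2 and 21.4 CPM in MUTC16, against 19.7, 21.6 and 21.5 CPM in WTD16 and 20.7, 21.9 and 22.6 CPM in WTC16. It was called in none of the 5 comparisons. Its largest log2 fold change was 0.20 in the mutant line against the wild-type line with doxycycline (SE 0.12, adjusted p = 0.169). Per 100 counts of *Tet1* there were 12.7, 13.8 and 15.8 of *Tet3* in MUTD16 and 11.7, 10.8 and 14.1 in MUTC16, against 7.83, 5.64 and 6.87 in WTD16 and 5.69, 7.82 and 5.66 in WTC16. The mutant ratios all lay above the wild-type ones.

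*Tdg* (chromosome 10, 82629828 to 82650799, plus strand), the glycosylase, held 20 to 49 counts per library. It stood at 4.82, 6.20 and 7.83 CPM in MUTD16 against 7.94, 9.97 and 7.27 CPM in MUTC16. In the wild-type line it stood at 7.54, 5.94 and 4.35 CPM in WTD16 against 6.18, 8.37 and 9.19 CPM in WTC16. The groups overlapped in both responses, with log2 fold changes of −0.41 in the mutant line (SE 0.22, adjusted p = 0.999) and −0.42 in the wild-type line (SE 0.23, adjusted p = 0.377). *Tdg* has near-identical annotated copies that are not rows of the count table, among them *Tdg-ps* over 2968 bases at 98.7% identity and *Gm9855* over 1194 bases at 99.2%. The sources used here do not say how reads shared with these copies were counted, so its level is uncertain.

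Among proteins that work with the methyltransferases, a list of 27 genes all tested, 1 was called in the wild-type response, and it was lower. Of all genes 5.32% were called there, 2.56% lower. *Daxx*, a chaperone of a variant histone, averaged 97.3 ± 3.49 CPM in WTD16 and 114 ± 4.66 CPM in WTC16 (log2 fold change −0.22, SE 0.07, adjusted p = 0.0271), a call that DESeq2 did not make. The list's median was −0.01. Between the lines 7 were higher and 11 lower in the mutant line without doxycycline, and 5 higher and 11 lower with it, with medians of −0.13 and −0.16, where 23% and 21.9% of all genes were called higher and 22.6% and 22.4% lower. *Dppa3*, which keeps UHRF1 and DNMT1 from methylating the genome of the egg and early embryo, averaged 3.71 ± 1.00 CPM in MUTC16 and 17.8 ± 1.45 CPM in WTC16 (−2.25, SE 0.20, adjusted p = 3.57e-14). *Zfp57*, which holds methylation at imprinted regions, averaged 27.6 ± 3.85 CPM in MUTD16 and 60.3 ± 0.502 CPM in WTD16 (−1.13, SE 0.10, adjusted p = 8.99e-14). *Lin28a*, an RNA-binding protein, was higher in the mutant line, at 708 ± 18.4 CPM in MUTC16 and 473 ± 17.1 CPM in WTC16 (0.58, SE 0.04, adjusted p = 3.66e-17).

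Of 17 tested genes for proteins that bind methylated or unmethylated CpG, 1 rose and 1 fell in the wild-type response. Over all genes 2.76% were called higher there and 2.56% lower. *Cxxc5*, a CXXC-domain protein, averaged 76.5 ± 4.88 CPM in WTD16 and 36.0 ± 1.56 CPM in WTC16 (1.09, SE 0.08, adjusted p = 9.94e-16), and its response differed between the lines by −1.16 (SE 0.11, adjusted p = 5.48e-12). In MUTC16 it already averaged 83.6 ± 5.32 CPM, higher than in WTC16 by 1.22 (SE 0.08, adjusted p = 5.57e-19). *Qser1*, described in human stem cells as a protector of unmethylated regions, averaged 242 ± 30.8 CPM in WTD16 and 315 ± 8.46 CPM in WTC16 (−0.38, SE 0.06, adjusted p = 5.73e-05), with a difference between the responses of 0.33 (SE 0.09, adjusted p = 0.0329) that DESeq2 did not call. Between the lines 3 of the 17 were higher and 4 lower in the mutant line without doxycycline, and 4 higher and 2 lower with it, shares near or under those of all genes. *Kdm2b*, a histone demethylase with a CXXC domain, was higher in the mutant line in both, by 0.58 without doxycycline (SE 0.05, adjusted p = 1.50e-13) and 0.51 with it (SE 0.05, adjusted p = 1.57e-11). *Mbd3*, of the NuRD complex, was lower with doxycycline, at −0.34 (SE 0.05, adjusted p = 5.03e-07).

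Of 21 tested partners of the TET enzymes and base excision repair genes, 2 fell in the wild-type response and 0 rose. There 2.56% of all genes were called lower and 2.76% higher. *Nanog*, a pluripotency factor that binds TET1, averaged 50.2 ± 4.52 CPM in WTD16 and 70.4 ± 11.5 CPM in WTC16 (−0.48, SE 0.09, adjusted p = 0.000335). *Gadd45a*, a stress protein linked to demethylation, averaged 21.1 ± 2.82 CPM in WTD16 and 30.3 ± 2.51 CPM in WTC16 (−0.53, SE 0.12, adjusted p = 0.00159), and its response differed between the lines by 0.68 (SE 0.15, adjusted p = 0.00266). In the mutant line 2 of the 21 were higher and 6 lower without doxycycline, and 3 higher and 4 lower with it. Of all genes 23% were called higher and 22.6% lower without doxycycline, and 21.9% and 22.4% with it. In either direction the shares of all genes were 45.5% and 44.4%. *Apex1*, the endonuclease of base excision repair, averaged 276 ± 8.48 CPM in MUTC16 and 189 ± 6.30 CPM in WTC16 (0.55, SE 0.05, adjusted p = 9.20e-14). *Ung*, the uracil glycosylase, which also stands in the S phase list, averaged 70.5 ± 1.39 CPM in MUTC16 and 106 ± 3.53 CPM in WTC16 (−0.59, SE 0.07, adjusted p = 1.40e-10).

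Genes for the substrates of these enzymes were counted against the 45.5% and 44.4% of all genes called between the lines without and with doxycycline. Of 18 tested genes that make or recycle the methyl donor S-adenosylmethionine, 9 were lower and 0 higher without doxycycline, and 8 lower and 0 higher with it. The medians were −0.16 and −0.10. Only in either direction was that share near that of all genes. By direction, 22.6% of all genes were called lower and 23% higher without doxycycline, and 22.4% and 21.9% with it. *Mthfd2*, of mitochondrial folate metabolism, averaged 44.8 ± 1.96 CPM in MUTC16 and 118 ± 7.34 CPM in WTC16 (−1.39, SE 0.07, adjusted p = 8.24e-23). *Ahcy*, which clears the product that inhibits methyltransferases, averaged 514 ± 7.05 CPM in MUTC16 and 711 ± 4.53 CPM in WTC16 (−0.47, SE 0.04, adjusted p = 5.58e-14). In the wild-type response 2 of the 18 fell and 0 rose, where 2.56% of all genes were called lower and 2.76% higher. *Mat2b*, a regulator of the synthetase, fell by 0.31 on the log2 scale (SE 0.07, adjusted p = 0.000938), with a difference between the responses of 0.35 (SE 0.09, adjusted p = 0.0236) that DESeq2 did not call. *Tdh*, the threonine dehydrogenase that feeds folate in mouse stem cells, fell by 0.27 (SE 0.06, adjusted p = 0.00195). Of 17 genes around 2-oxoglutarate, 9 were lower and 3 higher without doxycycline and 7 lower and 3 higher with it, and 0 were called in the wild-type response by edgeR, DESeq2 or limma-voom (1 lower at an unadjusted p under 0.05 in edgeR). *Ogdh*, which consumes 2-oxoglutarate, was lower by −0.57 (SE 0.05, adjusted p = 1.93e-13) and *Psat1*, which produces it in serine synthesis, by −0.54 (SE 0.05, adjusted p = 3.75e-13), both without doxycycline. In the mutant response 0 genes of any of these lists were called by any of the 3 tools. At an unadjusted p under 0.05 edgeR gave 1 higher around 2-oxoglutarate, 1 lower among the CpG binders, the S phase genes above, and 0 in the others. Of 3 further methyltransferase symbols listed, 1 (*Trdmt1*, a tRNA methyltransferase) was a row of the table, and it was called in no comparison.

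**Figure D5:**
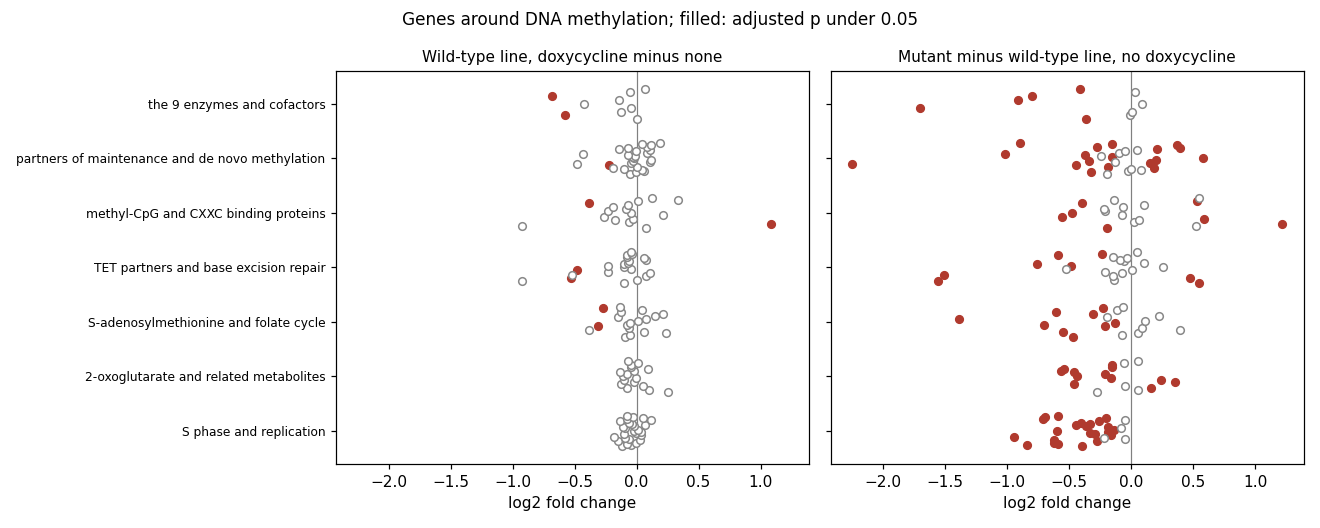
Log2 fold change of every tested gene of the 9 members and of 6 lists, as 1 point per gene, in the wild-type response to doxycycline (left) and in the mutant line minus the wild-type line without doxycycline (right). Filled points have an adjusted p under 0.05 by edgeR: in the S phase list 0 of 27 are filled on the left and 23 on the right, all lower in the mutant line. Of all genes tested 5.32% were called in the left comparison and 45.5% in the right one, 22.6% lower.

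Marker lists of cell states were counted too. Between the lines without doxycycline 23% of all genes were called higher and 22.6% lower, and with it 21.9% and 22.4%. In the wild-type response 2.76% were called higher and 2.56% lower. Naive pluripotency genes, 11 tested and none at 0, summed to 612 to 624 CPM in MUTD16 and 606 to 641 in MUTC16, against 1002 to 1070 in WTD16 and 1033 to 1118 in WTC16. Of them 9 were lower in the mutant line without doxycycline and 10 with it, and 0 were higher. The 8 formative and primed epiblast genes summed to 946 to 980 CPM in MUTD16 and 958 to 1027 in MUTC16, against 645 to 672 in WTD16 and 705 to 735 in WTC16, with 4 higher and 4 lower in the mutant line without doxycycline and 3 higher and 2 lower with it. In the wild-type response, beside the fall of *Dnmt3a*, 2 of these 8 rose and 3 fell, with a median log2 fold change of −0.01. Of the 11 naive genes 3 rose and 2 fell there, with a median of 0.02. With DESeq2 1 naive gene rose and 1 fell, and without both libraries that stood apart 2 rose and 1 fell. Of the 7 pluripotent epiblast genes 2 fell in the wild-type response and 0 rose (3 fell with DESeq2 or limma-voom, 4 without both libraries that stood apart). Compared with the wild-type line, 3 of the 7 were higher and 2 lower in the mutant line without doxycycline, and 4 higher and 1 lower with it. Primitive and extraembryonic endoderm genes, with 10 of 16 tested and none at 0, summed to 356 to 376 CPM in MUTD16, 357 to 365 in MUTC16, 292 to 317 in WTD16 and 241 to 259 in WTC16. In the wild-type response 3 of the 10 rose, or 1 without both libraries that stood apart. Between the lines 6 of the 10 were higher and 0 lower in the mutant line without doxycycline, and 4 higher and 1 lower with it. Trophoblast genes summed to 184 to 190 CPM in MUTD16, 163 to 172 in MUTC16, 162 to 179 in WTD16 and 130 to 159 in WTC16, with *Elf5* at 0 in the last 3 groups. Of 6 tested, 1 rose in the wild-type response. Of the same 6, 2 were higher and 0 lower in the mutant line without doxycycline, and 1 higher and 1 lower with it. Germ cell genes summed to 126 to 165 CPM over all libraries, two-cell-like genes to 8.07 to 20.5 CPM, fibroblast genes to 22.8 to 44.9 CPM, and blood and endothelial genes to 29.5 to 62.7 CPM with *Hbb-bh1* and *Hba-x* at 0, and edgeR called none of these 4 lists' genes in either response. At an unadjusted p under 0.05 it gave 1 germ cell and 1 fibroblast gene, both lower, in the wild-type response, and 1 germ cell and 2 two-cell-like genes, all lower, in the mutant response. DESeq2 called 1 fibroblast gene lower in the wild-type response. Without doxycycline the mutant line had 1 of 9 germ cell genes higher and 3 lower, and 2 of 3 two-cell-like genes higher. It also had 1 of 7 fibroblast genes higher and 1 lower, and 2 of 4 blood and endothelial genes lower. With doxycycline it had 1 germ cell gene higher and 4 lower, 2 fibroblast genes higher and 1 lower, and 1 blood and endothelial gene lower. The part of these cell states in the members' levels was not tested.

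The genes whose log2 CPM followed *Dnmt3a* most closely over the 12 libraries, among 9853 candidates with a mean of at least 5 CPM, were *Mcl1* (Pearson r = 0.98), *Pou3f1* (0.97) and *Ubr7* (0.97). These coefficients are a description over libraries that share 4 group means. *Mcl1*, an inhibitor of apoptosis, averaged 365 and 376 CPM in MUTD16 and MUTC16, and 262 CPM in WTD16 against 374 CPM in WTC16 (−0.52, SE 0.04, adjusted p = 1.13e-13). *Pou3f1*, a POU factor of the formative epiblast, averaged 193 and 189 CPM in MUTD16 and MUTC16, and 105 CPM in WTD16 against 210 CPM in WTC16. *Ubr7*, a ubiquitin ligase family member, averaged 178 CPM in WTD16 against 255 CPM in WTC16 (−0.52, SE 0.05, adjusted p = 1.07e-11). All 3 show the pattern of *Dnmt3a*, with WTD16 under the other groups, which follows from how they were chosen. Their fold changes and adjusted p come from the same libraries and add no separate evidence. For *Tet2* the closest were *Nav2* (0.93), *Sntb2* (0.91) and *Ezh1* (0.91), of which *Nav2* was called in the wild-type response (−0.36, SE 0.07, adjusted p = 0.000288). These too were chosen on the libraries tested.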

How the data were processed

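The authors deposited raw read counts per gene for all 12 libraries. Per the submitters' processing notes, Trimmomatic 0.33, TopHat2 2.1.1, mm10 and limma were used. For the counting tool, its annotation and strand the sources used here give nothing. Per the labels, a TruSeq RNA kit was used.

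Groups came from the sample titles. No label states whether replicates came from separate cultures. The p-values thus measure only the spread between these libraries, which may be technical. All replicate pairs differed by more than sampling noise (lowest chi-square per degree of freedom 1.11).

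The counts as deposited were tested with edgeR 4.0.16 in R 4.3.3 (quasi-likelihood, robust, TMM, filterByExpr with a minimum count of 10 and a total of 15), 12 libraries in 1 fit with 1 mean per group. The 12322 genes tested held 99.8% of the counts. All adjusted p-values are Benjamini-Hochberg over these genes, within a comparison, with calls under 0.05. The SE is the size of the log2 fold change over the square root of F. DESeq2 1.42.0 and limma-voom (limma 3.58.1) were alternatives. The test was checked on simulated counts whose spread followed the trend at each level. That check does not cover genes such as *Tet1* and *Tet2*, whose spread lay above the trend.

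Positions and exon lengths are GENCODE M21, matched by symbol. Copies were sought with BLAST+ 2.17.0 (at least 95% identity over 200 bases). Genes beyond the 9 were named by rule: the called genes of each list that rank first by adjusted p (up to 3 in the wild-type response, up to 2 in other comparisons) and the 3 genes most like each member called in the wild-type response. The members and lists were chosen with earlier results of these data known. *Aire*, *Rn45s* and *Bnip3* were chosen after their values were seen. At 4289984 to 4850393 counts per library, small changes in *Tet2*, *Tet3* and *Tdg* were not detectable.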

Additional observations from a re-analysis of the deposited data

Results flagged for a closer look

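The doxycycline response of *Dnmt3a* differed between the lines. The mutant response minus the wild-type response was 0.61 on the log2 scale (SE 0.06, adjusted p = 5.97e-11 by edgeR's interaction contrast). MUTD16 and MUTC16 overlapped, while all 3 WTD16 libraries lay under all 3 WTC16 libraries. Over the alternatives that left out 1 library the difference ran from 0.59 to 0.64.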

How the results depend on the processing

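The calls on *Dnmt3a*, *Dnmt3l*, *Uhrf1*, *Dnmt1* and *Tet1* kept their direction and their side of the threshold in every alternative run for that comparison. Calls lost on *Tet2* and gained on *Dnmt3b* and *Tet1* stand with those genes in the text above. Genes called in the mutant response were 5 with the compared libraries alone and 4 with the covariate, against 2. DESeq2 called 380 genes against 655 in the wild-type response and 153 against 307 in the difference. Members called in the wild-type response were 1 with DESeq2 and 4 with the covariate, and in the difference 2 with the covariate. Leaving out 1 library gave 2 to 2, 501 to 599, 229 to 322, 4914 to 5140 and 4748 to 4957 genes in the mutant response, the wild-type response, their difference, and the lines without and with doxycycline, and 0 to 0, 1 to 3, 1 to 1, 5 to 5 and 5 to 6 members. For the difference, the fit on the compared libraries alone is the same fit.

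Values that changed sign were all uncalled. *Dnmt1* turned to −0.00128 without the filter, −0.0222 without both libraries that stood apart and −0.00236 with the covariate in the wild-type response, to 0.00806 with the covariate in the mutant response, and to 0.0136 and 0.0104 without both libraries and with the covariate in the difference. *Tet1* turned to 0.0388 with the covariate in the mutant response. Without both libraries *Tdg* turned to −0.102 in the difference and *Dnmt3b* to −0.0434 between the lines without doxycycline. Leaving out 1 library, *Dnmt1* ran from −0.0530 to 0.0223 in the mutant response, −0.0126 to 0.0195 in the wild-type response and −0.0545 to 0.0208 in the difference, *Tet1* from −0.109 to 0.192 and *Tdg* from −0.184 to 0.219 in the difference. Between the lines without doxycycline *Dnmt3a* ran from −0.0337 to 0.00779, *Dnmt3b* from −0.0357 to 0.0282, *Tet3* from −0.0324 to 0.0614 and *Tdg* from −0.0615 to 0.204, and with it *Tdg* from −0.1001 to 0.303. The cause was not tested.

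No pairing by replicate number was seen, which does not exclude one. Over 9125 genes, same-numbered libraries of 2 groups correlated between −0.146 and 0.146 in their deviations. Different-numbered ones correlated between −0.257 and 0.205. For the pairs of groups compared directly, 2 of 6 libraries at most correlated best with their own number. With the replicate block 2, 618, 286, 5502 and 5354 genes and 0, 2, 1, 5 and 6 members were called in the comparisons in the order above.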
